A study of Rattus norvegicus with 18 samples.

Results

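The subject is the soleus muscle of rats with experimentally reduced kidney mass, compared between a hindlimb whose main artery had been tied and the opposite hindlimb of the same animal. Members were the arrays whose titles read case-SNX, and each array of a right limb (title ending R) was set against the array of the left limb (title ending L) that carried the same rat number. They came to 10 of the 18 arrays and 5 of the 9 rats (rats 12, 18, 20, 37 and 49).

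All rats were male and had either a 5/6 nephrectomy, called SNX, or a sham operation. At 8 weeks after either operation, a femoral artery was tied and cut out on the right side, the left side was spared, and the soleus of both limbs was sampled 24 hours later. The 4 groups were therefore SNX left (5 arrays), SNX right (5 arrays), sham left (4 arrays) and sham right (4 arrays), and no animal was free of the ligation. The left limb is thus the inner control of an operated animal, not the muscle of an unoperated one. The study asks how chronic kidney disease bears on the growth of vessels after ischaemia.

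The source labels of the arrays describe every sham array as nonischemic and every SNX array as ischemic, for right and left limbs alike, which goes against the design text. Groups are therefore named by operation and side, as the titles give them. Rat numbers were read as animals. No label says more about how the samples were taken, so the p-values measure the spread between these arrays.

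Tying the femoral artery cuts the main blood supply of the lower limb, which then depends on collateral arteries. Muscle that is short of oxygen is known to draw more on glycolysis, to switch on stress-responsive transcription factors, and to call in monocytes, which clear damaged fibres and help to rebuild the matrix and the vessels. Chronic kidney disease is known for muscle wasting, inflammation and poor regrowth of vessels after ischaemia.

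Levels are log2 values of an expression array, so a difference of 1 is a doubling. The 10 arrays had medians between 3.221 and 3.373. Of the 18 arrays, the right limb of SNX rat 49 and the right limb of sham rat 17 were least like the rest (mean correlation 0.9803 and 0.9784). Between the limbs of rat 49, 12.9% of genes differed by more than 1 log2 unit, against 2.90%, 2.52%, 1.67% and 3.76% in rats 12, 18, 20 and 37. The right muscle of rat 49 thus enters the means below with many large differences.

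The tissue label was checked against muscle genes. Myh7, the myosin heavy chain of slow fibres and the defining myosin of soleus, read 14.32 to 15.73 in the 5 left muscles and 12.66 to 15.33 in the right ones, near the top of the scale, which ended at 15.904. Myh4, the fast IIb myosin that is scarce in rat soleus, also read high, between 15.31 and 15.66 on the left and 15.31 and 15.61 on the right. Markers of slow and fast fibres were thus both abundant in every SNX array. The high Myh4 goes against the soleus label, which was kept as given. Mean levels of the fast fibre list were 14.78 to 15.05 on the left and 14.70 to 15.00 on the right. Those of the slow fibre list were lower, at 11.17 to 13.28 on the left and 9.22 to 12.48 on the right.

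In the ligated muscle of SNX rats, the largest rises past the test were those of Ankrd1, Ccl2, Nmrk2 and Hk2. Ankrd1 is a stretch-responsive muscle gene, Ccl2 a monocyte chemokine, Nmrk2 a muscle nicotinamide riboside kinase and Hk2 hexokinase 2. The largest falls past the test were those of Mpv17l, Mterf2, Ppm1k and Slc25a29. At most 3 members of any gene list were called. The lists were chosen with earlier results of these data known, so the number of called members cannot test a list as a group. At the shares given next, most lists would hold no call. With 1 probe set per gene, the brightest over all 18 arrays, 50 of 14217 genes were higher in the right limb (0.352%) and 20 were lower (0.141%) at an adjusted p under 0.05. The test was limma's moderated test with the rat as a random block. Over all 31042 probe sets, 72 were higher (0.232%) and 27 were lower (0.087%), and 3881 (12.5%) had an unadjusted p under 0.05.

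The count depended on the fit and on single animals. It was 14 probe sets without the block, all 14 of them among the 99, and 6 with the rat as a fixed term, 3 of them among the 99. With the SNX arrays alone it was 1 with a random block and 0 with a fixed one. Leaving out rat 37 left 2 probe sets, leaving out rat 49 left 13, leaving out rat 18 left 24, leaving out rat 12 left 33, and leaving out rat 20 gave 147. Leaving out a sham rat, which enters through the shared spread, gave 30 for rat 13, 47 for rat 15 and 62 for rat 11. The share that was higher was 72.7%, against 86.7% after quantile normalization and 85.1% after median centring. It was 92.9% without the block, 3 of 6 with the fixed term, 0 of 1 with a random block on SNX arrays alone, 1 of 2 without rat 37 and 68.4% with array weights. No called gene turned its direction under any of the 19 alternatives, but each of the 70 lost its call under at least some of them. Only other normalization, array weights or leaving out an SNX rat could change the difference itself, so no turn was possible under the rest. Without rat 49, 6 of the 70 genes kept their call (Ccl2, Hk2, Fgl2, Cd93, Mall and Pdcd7), and without rat 37 none did.

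**Figure D1:**
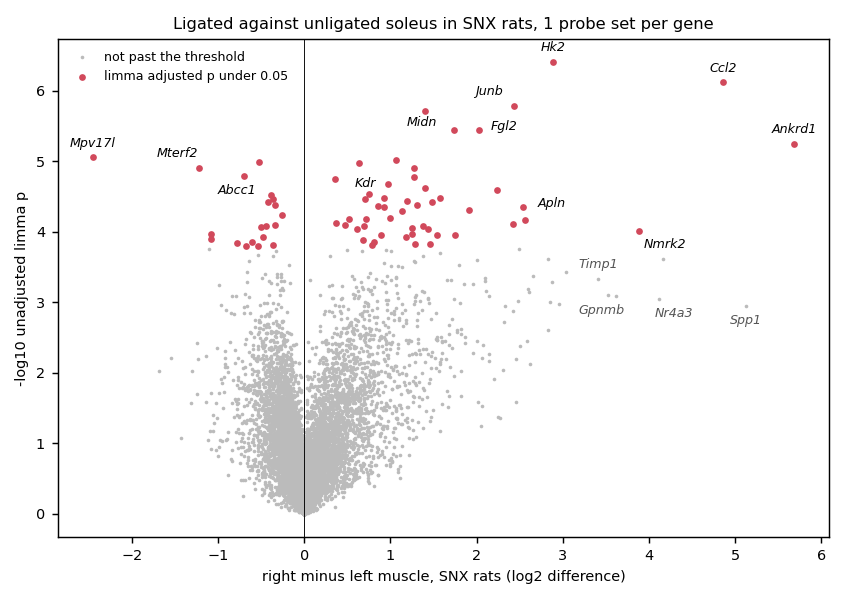
Difference between right and left soleus in SNX rats (log2, x axis) against -log10 of the unadjusted limma p (y axis), 1 point per gene. The 50 genes that rose and the 20 that fell are red; Spp1, Nr4a3, Gpnmb and Timp1 lie far to the right but below the red points.

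Large differences and called differences were not the same set. The right limb was higher by at least 1 log2 unit for 282 genes, of which 31 were called, and lower by that much for 26 genes, of which 4 were called. It was higher by at least 3 log2 units for 10 genes, of which Ankrd1, Ccl2 and Nmrk2 were called. Of the 50 genes that rose, 49 were higher in the right limb of all 5 rats, as were 8.03% of all genes, and 19 of the 20 that fell were lower in all 5, as were 6.49% of all genes. All right values lay above all left values for 46 of the 50 risen genes (1.98% of all genes), and below them for 16 of the 20 fallen genes (0.661% of all genes). These counts describe the called genes, which the same contrast selected. Among the risen genes, 9 had a mean below 5 in the SNX left limb, Ccl2, Junb and Hk2 among them. Their fold values thus start from low levels. The median difference over all genes was -0.01, and 44.8% of genes were above 0.

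Ccl2 encodes the chemokine that draws monocytes out of the blood. Its level in the left limb was 4.95, 4.10, 4.24, 4.52 and 4.07 in rats 12, 18, 20, 37 and 49, and in the right limb it was 8.42, 9.26, 7.55, 9.44 and 11.55. The lowest right value lay far above the highest left value. The rise was 4.87 ± 0.60 (moderated SE, 5 rats, adjusted p = 0.00392), or 29.1-fold. Ccl2 kept its call under 15 of 19 alternatives, without rat 49 as well (4.21, adjusted p = 0.0144). It lost the call with the rat as a fixed term (adjusted p = 0.106) and without rat 37 (adjusted p = 0.0715). With SNX arrays alone it was not called either (adjusted p = 0.0612 with a random block and 0.286 with a fixed one). Ccl7, a related monocyte chemokine, differed by 3.52 ± 0.84 (adjusted p = 0.101), with all 5 right values above the left ones. Of the 19 measured chemokines and their receptors only Ccl2 passed, the list median was 0.03, and 13 members had mean levels below the array medians in these rats.

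Stress-responsive transcription factors formed a second group. Junb and Maff encode leucine zipper proteins of the AP-1 and small MAF families, which bind DNA as dimers. Midn encodes midnolin, a nuclear protein that delivers such short-lived factors to the proteasome. The sequences before the starts of Junb and Maff are shown because both genes rose and each holds a motif counted below. They are the 250 bases before the annotated start in RefSeq, build GRCr8, written along the gene's strand, at chr19:40080876-40081125 (plus strand) for Junb and chr7:112792537-112792786 (plus strand) for Maff. Capitals mark a TATA box (TATAAA) in Junb, and in Maff a cAMP response element (TGACGTCA) and an E-box whose letters hold the hypoxia response core ACGTG on both strands.
Junb: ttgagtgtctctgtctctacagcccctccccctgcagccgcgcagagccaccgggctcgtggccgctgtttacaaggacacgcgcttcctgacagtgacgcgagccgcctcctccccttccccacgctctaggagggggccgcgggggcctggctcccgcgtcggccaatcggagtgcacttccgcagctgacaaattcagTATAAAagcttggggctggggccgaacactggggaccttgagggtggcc
Maff: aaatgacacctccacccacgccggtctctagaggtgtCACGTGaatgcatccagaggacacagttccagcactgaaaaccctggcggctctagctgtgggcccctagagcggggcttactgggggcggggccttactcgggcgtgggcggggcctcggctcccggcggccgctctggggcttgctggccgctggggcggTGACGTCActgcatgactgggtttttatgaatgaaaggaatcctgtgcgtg

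The TATA box of Junb and the cAMP response element of Maff both end 43 bases before the start. Promoter entries were found for 59 of the 70 called genes. Over both strands, the AP-1 motif TGANTCA occurred in 6 of 41 risen genes (14.6%), in 0 of 18 fallen genes and in 6.36% of all 27457 promoters of that length. TGACGTCA occurred in 1 of the 41 (2.44%) and in 1.70% of all promoters. ACGTG occurred in 9 of the 41 (22%), in 2 of the 18 (11.1%) and in 16.9% of all promoters. TATAAA occurred in 1 of the 41, in 2 of the 18 and in 13.1% of all promoters. A match says only that the letters are present.

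Junb read 4.67, 4.98, 4.67, 4.51 and 4.52 in the left limbs of rats 12, 18, 20, 37 and 49, and 7.56, 6.18, 7.19, 6.83 and 7.76 in the right limbs. The left values were tight, and the right values lay above all of them, with rat 18 lowest. Junb rose by 2.43 ± 0.32 (SE; adjusted p = 0.00717), or 5.41-fold. Midn rose by 1.74 ± 0.24 (adjusted p = 0.0103), from 9.36 to 10.52 on the left to 11.24 to 12.13 on the right, and both kept their call under 14 of 19 alternatives. Maff rose by 2.57 ± 0.47 (adjusted p = 0.0364), with rat 12 highest on the left (6.45, others 3.64 to 4.51) and changing least (0.75).

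Other immediate early genes were already high in some left limbs. Nr4a3, an orphan nuclear receptor of activated muscle, read 11.31, 3.81, 9.47, 5.79 and 6.63 on the left and 11.75, 11.25, 12.22, 10.58 and 11.80 on the right. The right values were alike and the left values ranged widely, so the limbs overlapped and the difference of 4.12 ± 1.0 did not pass (adjusted p = 0.102). Atf3, a stress-induced repressor, was at 12.19 in the left limb of rat 12 and at 6.05 in that of rat 18, and differed by 2.51 ± 0.74 (adjusted p = 0.168). Egr1, Myc and Fos differed by 2.10 ± 0.48, 2.10 ± 0.47 and 1.32 ± 0.62 (adjusted p = 0.0843, 0.0826 and 0.399). Of the 23 immediate early genes, 3 rose, 19 were above 0, 11 were higher in all 5 rats, and the median was 0.63. Over all genes, 0.352% rose, 44.8% were above 0 and 8.03% were higher in all 5 rats. Klf5, a zinc finger factor outside that list, rose by 1.74 ± 0.34 (adjusted p = 0.0424), by 0.59 and 0.64 in rats 12 and 20 and by 1.95 to 2.94 in the others.

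**Figure D2:**
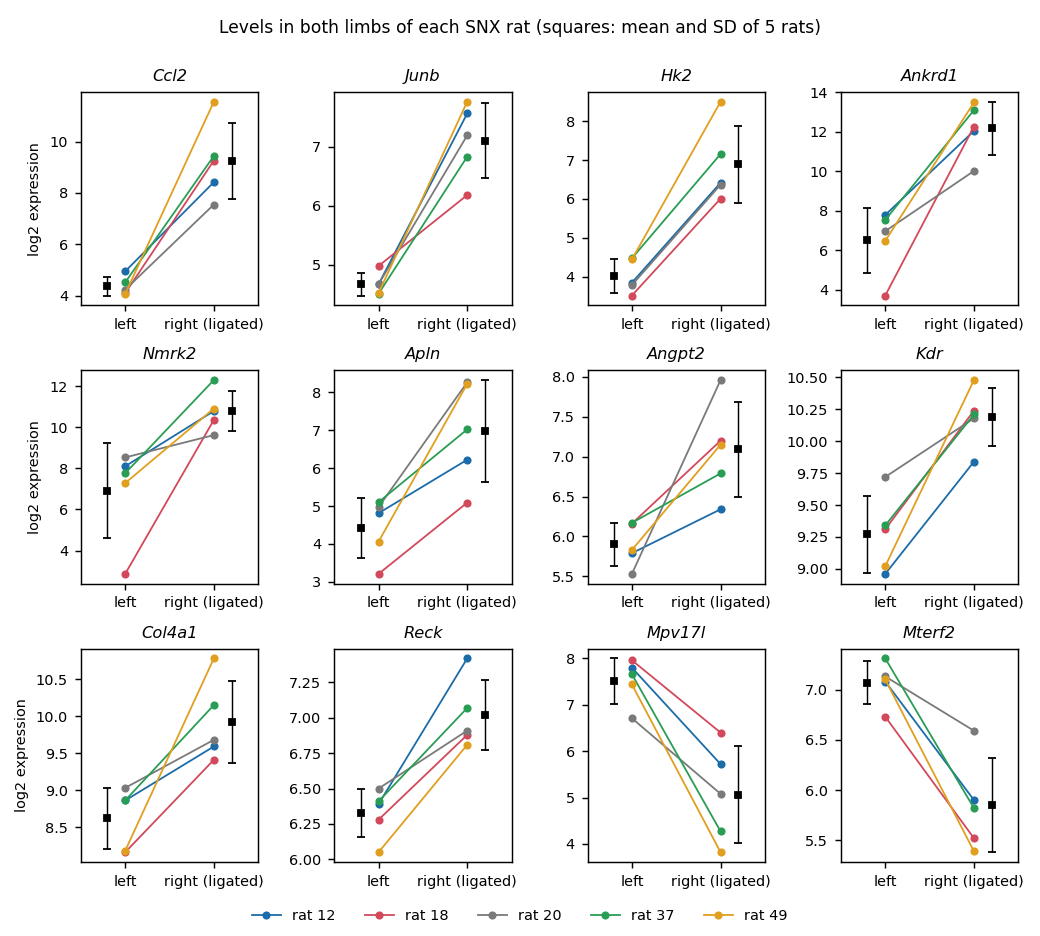
Log2 expression (y axis) of 12 named genes in the left and the ligated right soleus, 1 coloured line per SNX rat; squares and bars give the mean and SD of 5 rats. Ccl2, Junb, Hk2 and Ankrd1 separate the limbs in every rat, Nmrk2 and Ankrd1 start lowest on the left in rat 18, and Mpv17l and Mterf2 fall in every rat.

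Hk2 encodes hexokinase 2, which traps glucose inside muscle as glucose 6-phosphate. It read 3.84, 3.51, 3.78, 4.47 and 4.44 in the left limbs of rats 12, 18, 20, 37 and 49 and 6.42, 6.01, 6.37, 7.16 and 8.51 in the right limbs. Every right value exceeded every left value, and 4 rats rose by 2.50 to 2.69 while rat 49 rose by 4.06. Hk2 rose by 2.89 ± 0.34 (adjusted p = 0.00392), or 7.39-fold, and by 2.59 without rat 49 (adjusted p = 0.00346). It kept its call under 15 of 19 alternatives.

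Hk2 alone passed among 26 genes of glucose uptake, glycolysis and glycogen, whose median was 0.04. Pfkp, the platelet form of phosphofructokinase, differed by 0.98 ± 0.27 (adjusted p = 0.151), and Slc2a1, the glucose transporter GLUT1, by 1.39 ± 0.52 (adjusted p = 0.278), of which rats 37 and 49 held 2.53 and 3.2 and the others 0.38 to 0.45. Ugp2, which makes the UDP-glucose used for glycogen and is named here after its value was seen, rose by 0.35 ± 0.06 (adjusted p = 0.0234) from a left range of 13.86 to 14.20. Prkag2 encodes a regulatory subunit of the energy sensor AMPK. It rose by 2.42 ± 0.45 (adjusted p = 0.0374), from 4.48 to 5.44 on the left to 6.26 to 8.95 on the right, with rats 20 and 49 highest.

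No listed gene of the oxygen-sensing pathway was called, where 0.352% of all genes rose and 0.141% fell. At those shares a list of this size would seldom hold a call, so the lack of calls says little about the pathway. None of 24 genes listed for the hypoxia-inducible factor system passed, 12 were above 0 and 12 below, and the median was -0.00. The list does not hold every gene that responds to low oxygen. The called Hk2, Apln and Angpt2 were counted in the glucose and angiogenic lists. Hif1a, the oxygen-regulated subunit, read 10.62, 9.94, 10.17, 10.21 and 10.35 on the left and 10.47, 10.76, 10.82, 11.09 and 11.72 on the right, a difference of 0.72 ± 0.21 (adjusted p = 0.167). Its targets Hmox1, Ndrg1 and Adm differed by 2.48 ± 0.60, 1.0 ± 0.30 and 0.95 ± 0.40 (adjusted p = 0.105, 0.173 and 0.343), in each case with no overlap between the limbs. For Adm, rats 20 and 49 differed by 2.25 and 1.87 and the others by 0.12 to 0.30. A p above the threshold does not show that these genes were alike in both limbs.

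Ankrd1 encodes a muscle ankyrin repeat protein that sits on titin at the I-band and responds to stretch and injury. It read 7.78, 3.70, 6.96, 7.53 and 6.47 in the left limbs of rats 12, 18, 20, 37 and 49 and 12.04, 12.26, 10.01, 13.09 and 13.48 in the right limbs. The limbs did not overlap, rat 18 was lowest on the left and rat 20 lowest on the right. The rise was 5.69 ± 0.83 (SE; adjusted p = 0.0146), or 51.5-fold. It kept its call under 13 of 19 alternatives, but not without rat 18 (4.97; adjusted p = 0.0581), rat 49 (5.36; adjusted p = 0.105) or rat 37 (5.72; adjusted p = 0.0904), and it was 6.35 without rat 20. Another probe set of Ankrd1 gave 6.05 ± 0.98 (adjusted p = 0.0234).

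Ankrd1 was the only one of 18 ankyrin repeat, Z-disc and stretch genes to pass. Xirp1 and Csrp3, which encode proteins of the contractile lattice, differed by 2.11 ± 0.50 and 1.60 ± 0.46 (adjusted p = 0.0973 and 0.164). Rat 20 stood low in both, at 0.73 and -0.46, as did rat 12 at 0.22 and 0.80. Klhl40, a stabiliser of thin filaments named after its value was seen, rose by 1.48 ± 0.26 (adjusted p = 0.0296).

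Nmrk2 encodes the muscle kinase that turns nicotinamide riboside into a precursor of NAD. Its left values were 8.10, 2.86, 8.53, 7.76 and 7.28 and its right values 10.79, 10.36, 9.62, 12.30 and 10.91. Rat 18 started far below the others, under every array median, and so held the largest single difference, 7.49. Rat 20 held the smallest, 1.08. Nmrk2 rose by 3.89 ± 0.74 (adjusted p = 0.0408), or 14.8-fold, and kept its call under 5 of 19 alternatives. It was 2.99 without rat 18 and 4.59 without rat 20, both called, and 3.95 without rat 49 (adjusted p = 0.194). It alone passed among 15 genes of NAD synthesis and use, where the median was 0.01 and Nampt, the enzyme of the main salvage route, differed by 0.56 ± 0.13 (adjusted p = 0.100).

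Slow fibre contractile genes depended on single muscles. None of 11 passed, all 11 were below 0 with a median of -0.33, and the median by rat was -0.92, 0.82, -2.07, 0.01 and 0.55 in rats 12, 18, 20, 37 and 49. Tnnt1, the slow troponin T, read 14.87, 12.90, 12.44, 13.78 and 13.08 on the left and 13.58, 13.76, 9.77, 13.97 and 13.65 on the right, so that the right muscle of rat 20 lay below all others. Its difference of -0.47 ± 0.68 became 0.08 without rat 20, and that of Myh7 went from -0.21 ± 0.41 to 0.15. Fast fibre genes had a median of -0.07, and none of 14 passed. In bulk muscle, fewer cells of a type and less RNA per cell cannot be told apart.

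Vascular genes that rose encode a tip-cell peptide, a vessel-destabilising ligand and the main receptor of VEGF. Apln, the peptide apelin of sprouting endothelium, read 4.81, 3.21, 4.97, 5.10 and 4.06 on the left and 6.22, 5.09, 8.26, 7.02 and 8.22 on the right. It rose in each rat, by 1.42 to 4.16, but the right value of rat 18 was just below the highest left one. The rise was 2.53 ± 0.45 (adjusted p = 0.0300), or 5.79-fold, and a dimmer probe set of the gene gave 1.37 ± 0.35 (adjusted p = 0.124).

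Angpt2, the angiopoietin that loosens vessels for remodelling, read 5.79, 6.16, 5.53, 6.17 and 5.83 on the left and 6.34, 7.20, 7.96, 6.79 and 7.15 on the right. All right values exceeded all left ones, and rat 20 went from the lowest left to the highest right value. Angpt2 rose by 1.19 ± 0.21 (adjusted p = 0.0296), or 2.29-fold.

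Kdr, the main signalling receptor of VEGF on endothelium, read 8.96, 9.31, 9.72, 9.34 and 9.02 on the left and 9.84, 10.24, 10.18, 10.21 and 10.48 on the right. It rose by 0.92 ± 0.16 (adjusted p = 0.0295), or 1.89-fold, with no overlap between the limbs. Without rat 49, Apln, Angpt2 and Kdr gave 2.13, 1.16 and 0.79 (adjusted p = 0.180, 0.180 and 0.177). Of 35 angiogenic factors and receptors these 3 rose and none fell, 24 were above 0, and the median was 0.16. Over all genes, 0.352% rose and 44.8% were above 0.

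The ligand of Kdr and the receptor of Angpt2 did not pass. Vegfa read 11.00, 10.06, 11.11, 10.14 and 9.91 on the left and 11.49, 10.90, 11.26, 10.38 and 10.51 on the right, a difference of 0.46 ± 0.23 (adjusted p = 0.429). Tek, the receptor of the angiopoietins, was lower in the right limb of all 5 rats, by 0.54 ± 0.16 on average (adjusted p = 0.168). Kdr alone passed among 13 endothelial markers, which had a median of 0.10, and Pecam1, the endothelial adhesion molecule, differed by 0.24 ± 0.08 (adjusted p = 0.248). Mean levels of the endothelial list were 7.32 to 7.89 on the left and 7.58 to 7.83 on the right, lower on the right in rat 20 alone. None of 12 pericyte and smooth muscle markers passed (median 0.04): Mcam, an adhesion molecule of vessel walls, differed by 0.49 ± 0.13 and Rgs5, a regulator of G protein signalling in pericytes, by -0.53 ± 0.14 (both adjusted p = 0.144).

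Cd93 and Mall were 2 of the 8 genes that passed without the block. Cd93, a lectin-like surface protein of endothelium and myeloid cells, read 8.49, 8.99, 8.87, 8.77 and 8.29 on the left and 9.35, 9.57, 9.68, 9.75 and 10.37 on the right, and rose by 1.06 ± 0.16 (adjusted p = 0.0182). Mall, a membrane raft protein of the MAL family, went from 5.50 to 5.99 on the left to 6.83 to 7.78 on the right and rose by 1.41 ± 0.19 (adjusted p = 0.00755). Both kept their call under 15 of 19 alternatives. Gja1, the gap junction protein connexin 43, rose by 1.58 ± 0.27 (adjusted p = 0.0295), from 8.76 to 10.08 on the left to 10.54 to 12.19 on the right.

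Of 23 coagulation genes, 3 rose, where 0.352% of all genes did, and the median was 0.28. The sequence before the start of Tfpi2, an inhibitor of serine proteases and of the tissue factor pathway, is shown because it holds an AP-1 and a hypoxia response letter match side by side. It is taken from RefSeq, build GRCr8, at chr4:32941277-32941526 (minus strand), and capitals mark TGAATCA, an AP-1 match ending 73 bases before the start, and CACGT, the hypoxia response core read on the other strand, ending 66 bases before it.
Tfpi2: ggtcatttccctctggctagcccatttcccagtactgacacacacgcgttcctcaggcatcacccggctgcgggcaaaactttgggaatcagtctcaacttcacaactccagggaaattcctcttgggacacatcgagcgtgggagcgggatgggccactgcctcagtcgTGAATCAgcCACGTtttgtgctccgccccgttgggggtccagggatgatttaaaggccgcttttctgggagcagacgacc

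Tfpi2 read 4.55, 4.52, 4.54, 3.99 and 4.47 on the left and 5.69, 6.08, 6.44, 6.84 and 8.18 on the right. The left values were close to each other and the right ones spread upward from them to rat 49. Tfpi2 rose by 2.23 ± 0.37 (adjusted p = 0.0284), or 4.70-fold, and kept its call under 11 of 19 alternatives.

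Fgl2, a prothrombinase of endothelium and macrophages, read 6.98, 6.97, 6.83, 6.93 and 6.78 on the left and 8.62, 8.50, 8.28, 8.99 and 10.22 on the right. It rose by 2.03 ± 0.29 (adjusted p = 0.0103), or 4.08-fold, with no overlap. Its other probe sets gave 2.43 ± 0.30 and 2.09 ± 0.26 (both adjusted p = 0.00392) and, for the dimmest, 1.27 ± 0.38 (adjusted p = 0.172). F2r, the thrombin receptor PAR1, rose by 1.40 ± 0.23 (adjusted p = 0.0275), from 6.74 to 7.67 on the left to 8.10 to 9.14 on the right. F3, the tissue factor that starts clotting, differed by 0.28 ± 0.15 (adjusted p = 0.468).

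Genes of the basement membrane, the sheet that wraps capillaries and fibres, included 3 that rose, where 0.352% of all genes did. Col4a1 and Col4a2 encode the chains of its collagen IV network and lie head to head on chromosome 16. The 76 bases between their annotated starts are shown because both genes rose and share them. They are chr16:84885521-84885596 (RefSeq, build GRCr8, plus strand, the strand of Col4a1), and none of the 4 motifs above occurs in them.
Col4a1 to Col4a2: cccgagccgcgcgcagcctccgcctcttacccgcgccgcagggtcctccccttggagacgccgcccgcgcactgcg

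Col4a1 read 8.86, 8.16, 9.03, 8.86 and 8.18 on the left and 9.59, 9.41, 9.68, 10.15 and 10.78 on the right, and rose by 1.30 ± 0.23 (adjusted p = 0.0298), or 2.47-fold. Another probe set of Col4a1, nearly as bright, gave 0.86 ± 0.18 (adjusted p = 0.0533). Col4a2 read 7.46, 7.06, 8.07, 7.54 and 7.22 on the left and 8.21, 8.18, 8.35, 8.66 and 8.91 on the right, and rose by 0.99 ± 0.18 (adjusted p = 0.0364), or 1.99-fold. In both genes rat 20 started highest and changed least, by 0.64 and 0.28, and rat 49 changed most, by 2.60 and 1.69. Without rat 49 they gave 0.98 and 0.82 (adjusted p = 0.107 and 0.201). Nid1, which links collagen IV to laminin, rose by 0.63 ± 0.10 (adjusted p = 0.0182), from 10.04 to 10.56 on the left to 10.74 to 11.20 on the right. The laminin chains Lamb1 and Lama4 differed by 0.66 ± 0.15 and 0.68 ± 0.18 (adjusted p = 0.0856 and 0.141). The median of 16 basement membrane genes was 0.47. Pxdn, which cross-links collagen IV and is named after its value was seen, rose by 0.97 ± 0.16 (adjusted p = 0.0261). A dimmer probe set of Pxdn gave 0.87 ± 0.29 (adjusted p = 0.214).

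Interstitial matrix genes were mostly above 0, but few passed. Of 27 measured, 2 rose, 25 were above 0, 12 were higher in all 5 rats, and the median was 0.89. Over all genes, 0.352% rose, 44.8% were above 0 and 8.03% were higher in all 5 rats. Col6a3, a chain of the microfibrils around fibres, rose by 1.29 ± 0.25 (adjusted p = 0.0483). Col12a1, a collagen on the surface of collagen I fibrils, read 5.25, 5.28, 6.82, 6.10 and 5.62 on the left and 7.15, 6.88, 6.76, 7.28 and 7.26 on the right, so rat 20 did not change (-0.06) and the limbs overlapped. Col12a1 rose by 1.25 ± 0.24 (adjusted p = 0.0424). Postn, Tnc, Fn1 and Vcan differed by 1.58 ± 0.32, 1.80 ± 0.38, 1.85 ± 0.42 and 2.82 ± 0.78 (adjusted p = 0.0552, 0.0686, 0.0874 and 0.149). Aebp1, a collagen-binding protein named after its value was seen, rose by 1.27 ± 0.20 (adjusted p = 0.0233). Without rat 49, Col6a3 and Aebp1 gave 1.0 and 1.10 (adjusted p = 0.235 and 0.140).

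Markers of attached tissue differed between the paired muscles too. The median member of the 6 tendon genes differed by 3.36, 1.65, -0.50, 0.99 and 0.10 in rats 12, 18, 20, 37 and 49, while the median interstitial matrix gene differed by 0.86, 1.10, -0.01, 0.99 and 1.57. Tnmd, a defining marker of tendon, read 5.38, 7.85, 9.42, 8.67 and 8.15 on the left and 9.39, 9.46, 9.03, 9.29 and 8.26 on the right. None of the 6 tendon genes and none of 13 fibroblast markers passed (medians 1.11 and 0.52). Mean levels of the tendon list ranged from 6.23 to 8.57 on the left and from 7.78 to 9.21 on the right. Their part in the matrix results was not tested.

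Matrix-cutting enzymes and their inhibitors included 2 genes that rose, among 18 with a median of 0.52, where 0.352% of all genes rose. Adamts5, an aggrecanase, rose by 0.93 ± 0.16 (adjusted p = 0.0300) and did so evenly, by 0.71 to 1.11 in the 5 rats. Another probe set of Adamts5 gave 0.44 ± 0.12 (adjusted p = 0.133), and the called one gave 0.89 without rat 49 (adjusted p = 0.124). Reck, a membrane-anchored inhibitor of metalloproteinases, read 6.39, 6.28, 6.50, 6.41 and 6.05 on the left and 7.42, 6.88, 6.91, 7.07 and 6.81 on the right. Reck rose by 0.69 ± 0.13 (adjusted p = 0.0374), or 1.61-fold, with no overlap. Timp1, a secreted inhibitor, read 6.20, 5.42, 5.81, 5.29 and 4.68 on the left and 7.85, 8.84, 6.25, 9.77 and 11.73 on the right, and its difference of 3.41 ± 0.76 did not pass (adjusted p = 0.0826). The 5 differences of Timp1 ran from 0.44 in rat 20 to 7.05 in rat 49.

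**Figure D3:**
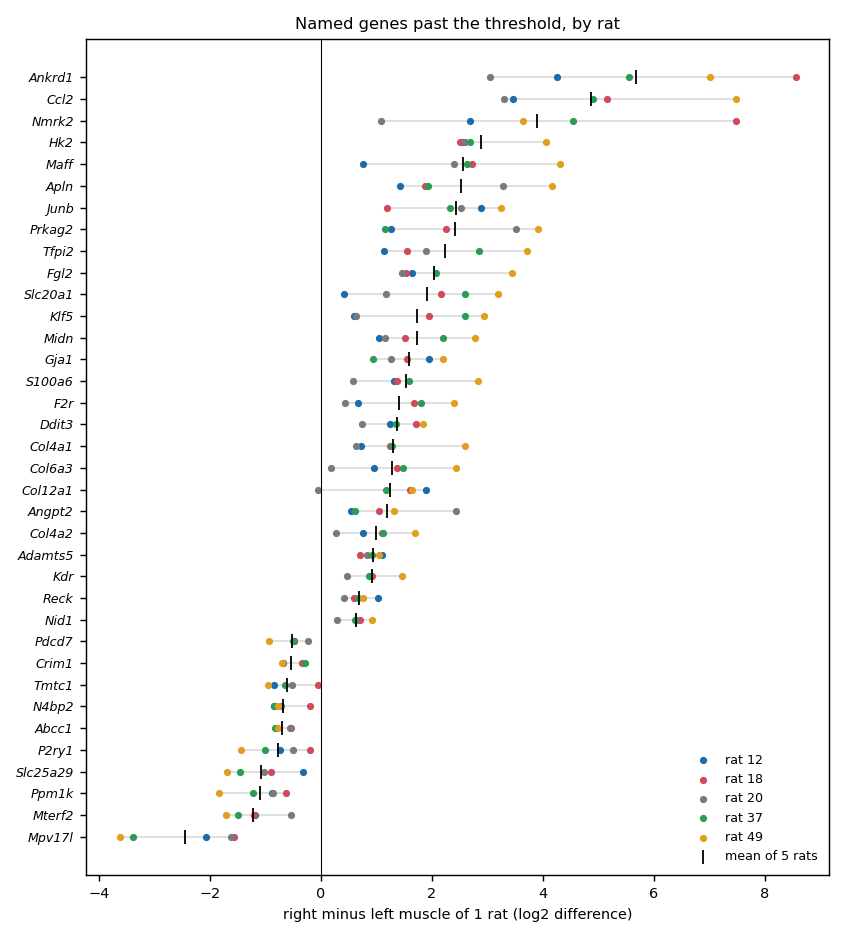
Right minus left difference (log2, x axis) of each named gene past the threshold, 1 row per gene, 1 coloured point per SNX rat and a tick for the mean of 5 rats. Rat 49 lies at or near the far end of most rows, rat 20 often nearest 0, and Col12a1 has 1 point below 0.

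Macrophage and monocyte markers were above 0 in all 19 cases without any being called. Their median was 1.22, 5 of 19 were higher in all 5 rats, and their mean level was 5.05, 5.04, 5.50, 4.97 and 4.98 on the left and 6.11, 6.55, 5.51, 6.50 and 8.37 on the right in rats 12, 18, 20, 37 and 49. Rat 20 was level between its limbs and rat 49 differed most.

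Spp1, the osteopontin of activated macrophages, read 3.33, 2.60, 3.64, 2.94 and 2.46 on the left and 7.43, 7.19, 6.15, 7.31 and 12.55 on the right. The limbs did not overlap, but rat 49 differed by 10.08 and the others by 2.51 to 4.59, and the mean difference of 5.13 ± 1.28 did not pass (adjusted p = 0.112). Gpnmb, a glycoprotein of lipid-laden macrophages, Cd14, the endotoxin co-receptor of monocytes, and Tyrobp, a myeloid adaptor, differed by 3.62 ± 0.87, 2.60 ± 0.61 and 2.15 ± 0.68 (adjusted p = 0.101, 0.0944 and 0.203). S100a6, a calcium-binding protein, was likewise least changed in rat 20 and most in rat 49, and it rose by 1.54 ± 0.30 (adjusted p = 0.0424), by 0.57 in rat 20 and 2.84 in rat 49. Whether macrophage content had a part in the rises of Fgl2, Cd93 or S100a6 was not tested.

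Other white cells were near the floor. Each of 13 lymphocyte markers and 5 of 7 neutrophil markers had a mean level below the array medians in SNX rats, with list medians of -0.01 and 0.02. Among 22 genes of cytokines, prostaglandin synthesis and adhesion none passed, 21 were above 0, and the median was 0.22. Tnfrsf12a, the receptor of TWEAK in injured muscle, came closest, with a difference of 2.82 ± 0.59 (adjusted p = 0.0623) and no overlap, and Icam1, which binds leukocytes to endothelium, differed by 1.43 ± 0.35 (adjusted p = 0.102).

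Nerve sheath markers differed unevenly between the limbs. None of 11 Schwann cell and myelin genes passed (median 0.28), and Mbp, a myelin protein, read 5.30, 5.95, 5.70, 5.42 and 6.09 on the left and 9.67, 6.57, 9.32, 9.61 and 4.66 on the right. Rats 12, 20 and 37 were high on the right and rats 18 and 49 were not, and the difference was 2.28 ± 1.03 (adjusted p = 0.380).

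**Figure D4:**
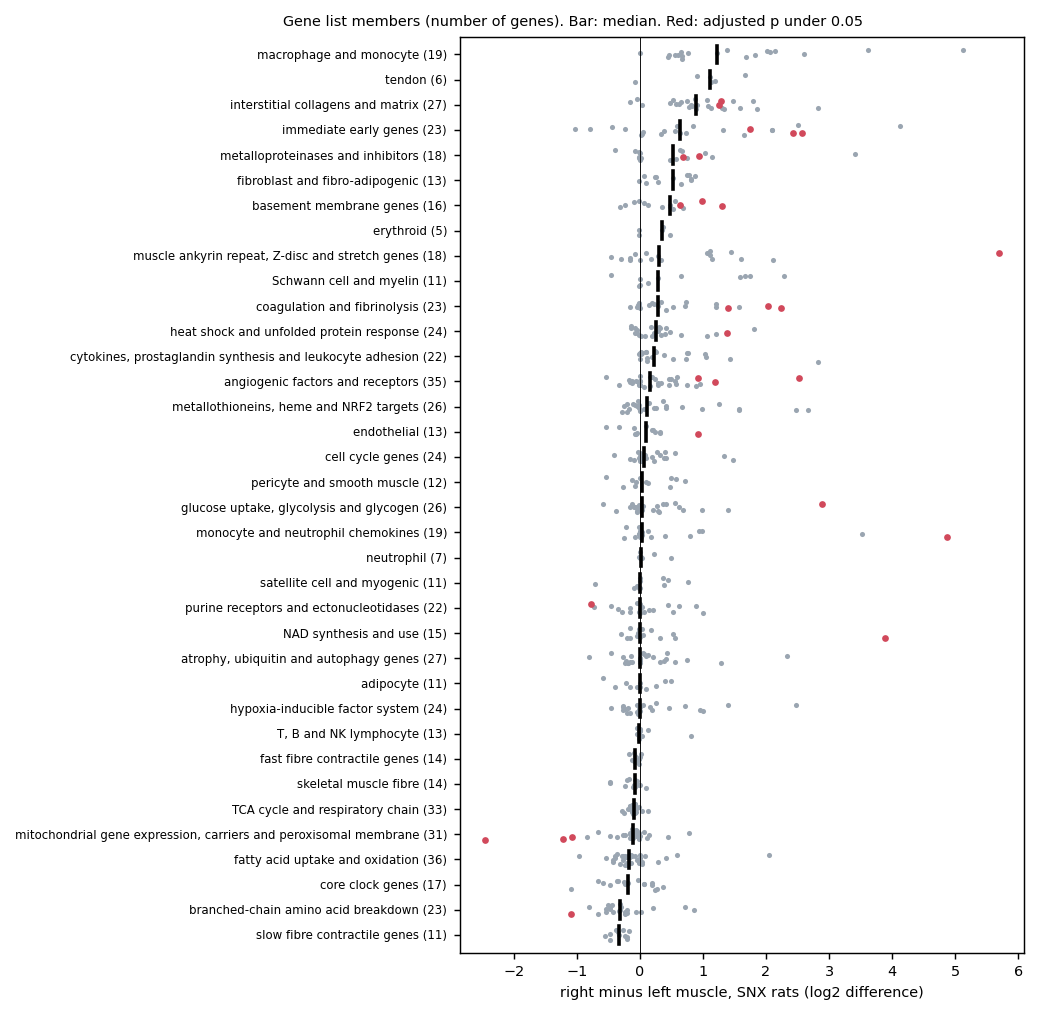
Right minus left difference in SNX rats (log2, x axis) of every measured member of 36 gene lists, 1 point per gene, with the list median as a black bar and called genes in red. Macrophage, tendon and interstitial matrix lists have the highest medians (1.22, 1.11 and 0.89); slow fibre and branched-chain amino acid lists have the lowest (-0.33 and -0.32).

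Stress of protein folding gave 1 called gene of 24 (median 0.26). Ddit3, the CHOP factor of the unfolded protein response, read 9.32, 8.13, 9.03, 8.72 and 7.97 on the left and 10.57, 9.85, 9.77, 10.07 and 9.81 on the right and rose by 1.38 ± 0.26 (adjusted p = 0.0374), or 2.60-fold. The inducible heat shock gene Hspa1a differed by 1.81 ± 0.44 (adjusted p = 0.110), with rats 12 and 20 highest on the left (10.72 and 10.32). Metallothioneins, heme and NRF2 target genes had none called of 26 (median 0.11), and Mt2A, a metal-binding protein, differed by 2.66 ± 0.59 (adjusted p = 0.0825) with no overlap. Slc20a1, a sodium phosphate importer, rose by 1.91 ± 0.34 (adjusted p = 0.0310), least in rat 12 (0.42), whose left muscle was the highest (9.82, others 7.97 to 8.85). No gene of 27 for atrophy, ubiquitin and autophagy passed (median 0.01): Runx1, a factor of denervated muscle, differed by 2.33 ± 0.58 (adjusted p = 0.112) and Trim63, the ubiquitin ligase MuRF1, by 0.41 ± 0.21 (adjusted p = 0.438).

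Among the called genes, the largest fall was that of Mpv17l. Mpv17l, a membrane protein of mitochondria and peroxisomes with a role in handling reactive oxygen, read 7.80, 7.96, 6.71, 7.66 and 7.44 on the left and 5.72, 6.40, 5.08, 4.27 and 3.82 on the right. All right values lay below all left ones, and rats 37 and 49 fell furthest, by 3.39 and 3.62. Mpv17l changed by -2.45 ± 0.37 (adjusted p = 0.0182), or 5.48-fold down, and kept its call under 10 of 19 alternatives, though not without rat 49 (-2.16; adjusted p = 0.0928). A dimmer probe set gave -0.51 ± 0.18 (adjusted p = 0.228).

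Mterf2, a regulator of mitochondrial transcription, read 7.08, 6.73, 7.13, 7.31 and 7.10 on the left and 5.90, 5.52, 6.59, 5.82 and 5.39 on the right, a change of -1.22 ± 0.19 (adjusted p = 0.0191). Rat 20 fell least, by 0.54. Slc25a29, a mitochondrial carrier of basic amino acids, changed by -1.08 ± 0.21 (adjusted p = 0.0442), from 6.71 to 7.60 on the left to 5.38 to 6.57 on the right. Of 31 genes of mitochondrial expression, carriers and peroxisomal membrane, these 3 fell, 26 were below 0, 9 were lower in all 5 rats, and the median was -0.11. Over all genes, 0.141% were called lower and 6.49% were lower in all 5 rats. The list joins the families of these 3 genes and was chosen with earlier results known. Their calls therefore cannot test it as a group.

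Ppm1k, the phosphatase that switches on the breakdown of branched-chain keto acids, read 9.17, 10.07, 9.36, 9.22 and 9.55 on the left and 8.29, 9.43, 8.50, 8.0 and 7.72 on the right. It fell in every rat, by 0.63 to 1.84, but rat 18 was high in both limbs, so the ranges overlapped. Ppm1k changed by -1.09 ± 0.21 (adjusted p = 0.0424), or 2.12-fold down. It alone passed among 23 genes of that pathway, of which 19 were below 0 and 13 were lower in all 5 rats, with a median of -0.32. Klf15, a factor that drives the pathway in muscle, differed by -0.80 ± 0.26 (adjusted p = 0.205), and Bcat2, its first enzyme, by -0.67 ± 0.28 (adjusted p = 0.325). The mean level of the list was lower on the right in each rat, at 9.57, 9.77, 9.61, 9.60 and 9.59 on the left and 9.35, 9.59, 9.47, 9.23 and 9.13 on the right.

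Energy-yielding pathways downstream had no called gene, where 0.352% of all genes rose and 0.141% fell. Of 33 genes of the TCA cycle and respiratory chain 31 were below 0, with a median of -0.10. Of 36 genes of fatty acid uptake and oxidation 28 were below 0, with a median of -0.17, and their median by rat was above 0 in rat 18 (0.20). Plin5, which tethers lipid droplets to mitochondria, differed by -0.97 ± 0.34 (adjusted p = 0.244), with rat 18 at 0.94 and the others at -0.96 to -1.71. The core clock genes had none called of 17 (median -0.19). Per3, a clock repressor, was lower in the right limb of all 5 rats, by 1.09 ± 0.41 (adjusted p = 0.287).

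P2ry1, an ADP receptor, read 10.04, 9.72, 9.53, 10.03 and 10.03 on the left and 9.30, 9.52, 9.03, 9.03 and 8.58 on the right, and changed by -0.78 ± 0.15 (adjusted p = 0.0483). It was the only called gene of 22 purine receptors and ectonucleotidases, whose median was 0.01. Abcc1, an exporter of glutathione conjugates, changed by -0.70 ± 0.11 (adjusted p = 0.0233), from 8.82 to 9.30 on the left to 8.24 to 8.73 on the right, and by -0.68 without rat 49 (adjusted p = 0.124). Among the other named falls, Pdcd7, a component of the minor spliceosome, changed by -0.53 ± 0.08 (adjusted p = 0.0182) and kept its call under 12 of 19 alternatives. N4bp2, Tmtc1 and Crim1 changed by -0.68 ± 0.13, -0.61 ± 0.12 and -0.54 ± 0.11 (adjusted p = 0.0493, 0.0466 and 0.0495), close to the threshold.

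**Figure D5:**
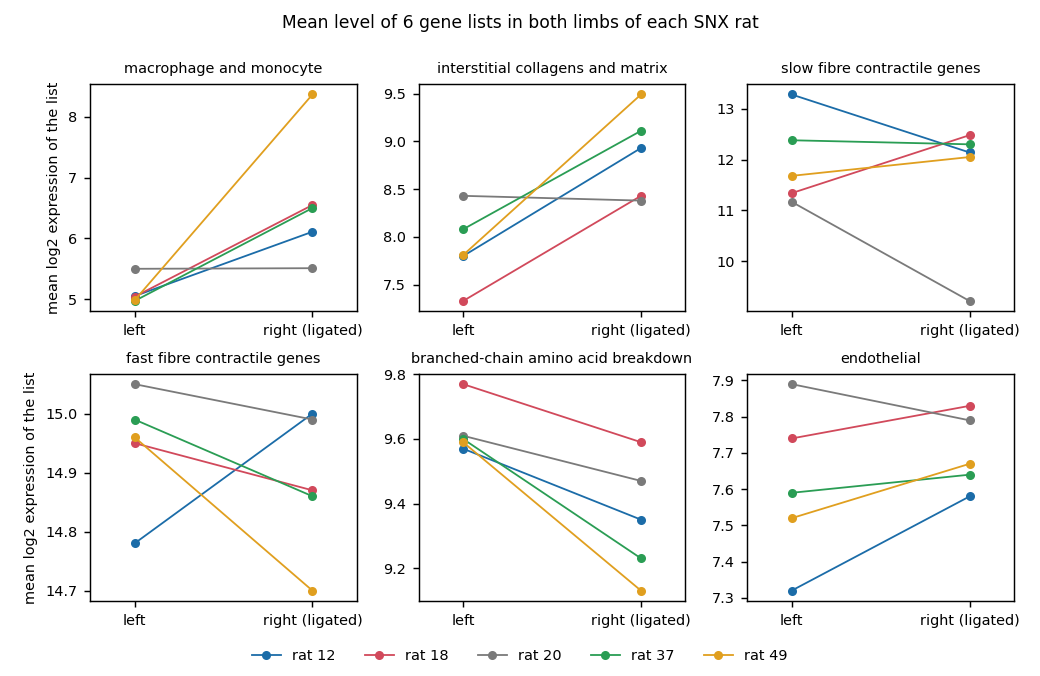
Mean log2 expression (y axis) of the members of 6 gene lists in the left and the ligated right soleus, 1 coloured line per SNX rat; each panel has its own scale. Macrophage genes are level in rat 20 and steepest in rat 49, slow fibre genes are lowest, at 9.22, in the right muscle of rat 20, and branched-chain amino acid genes slope down in all 5 rats.

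Sham rats had the same ligation, which allows the response to be set beside that of SNX rats. The limb contrasts of both operations come from different animals and share only the estimate of spread. Of the 50 genes that rose in SNX rats, 31 also passed in sham rats as higher, where 1.53% of all genes did, and of the 20 that fell, 8 also passed as lower, where 0.928% did. All 50 were above 0 and all 20 below 0 in sham rats, whatever their size. The starting levels differed too. In the left limb, 47 of the 50 risen genes were lower in SNX than in sham rats, as were 41.0% of all genes. Of the 20 fallen genes, 14 were higher there, as were most of all genes, so that count is not far from the background. Of the 70 called genes, 1 passed the left-limb test, where 2 of all 31042 probe sets did. The SNX left arrays enter both contrasts, so these counts are not independent of the calls. The part of the starting level in the responses was not tested. No probe set passed the test of the difference between the responses (limma interaction, 0 of 31042, or 0%; 953 with an unadjusted p under 0.05, or 3.07%). The fits without the block and with the rat as a fixed term also gave 0.

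At the level of single genes, the sham changes of Ccl2, Hk2 and Junb were 5.73 ± 0.67, 2.36 ± 0.38 and 3.47 ± 0.36 (n = 4 rats). Ankrd1, Nmrk2 and Apln changed by 4.0 ± 0.93, 1.74 ± 0.83 and 1.80 ± 0.50 in sham rats, with adjusted p = 0.0421, 0.263 and 0.0789. Kdr and Angpt2 changed by 0.79 ± 0.18 and 1.34 ± 0.23 in sham rats, close to their SNX values. For Reck, sham rats gave 0.00 ± 0.14, higher in 2 rats and lower in 2, and the difference of responses was 0.69 ± 0.19 (adjusted p = 0.976). Nid1 gave 0.15 ± 0.11 in sham rats and a difference of responses of 0.48 ± 0.15 (adjusted p = 0.976). Of the 70 called genes, 10 had an unadjusted p under 0.05 for that difference (limma interaction), Reck and Nid1 among them, and none passed the adjustment over all probe sets. Over all probe sets the share was 3.07%. The SNX contrast that selected the 70 genes is part of that difference, so the count of 10 is not independent of the calls.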

How the data were processed

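RNA from 18 soleus muscles was hybridised to 1-colour Affymetrix rat arrays, per the labels' protocols from 2 ug of total RNA. The authors deposited log2 values per probe set; RMA, GCRMA and Partek stand in the submitters' processing notes, without saying which one gave these values. The values were used as deposited. After 57 control probe sets were left out, 31042 were tested; 20826 carried 1 gene symbol, 436 several and 9780 none. The brightest probe set over all arrays stood for each of 14217 genes. The called genes had 46 other probe sets, of which 36 had the same sign and 6 passed.

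A mean per group was fitted over all 18 arrays with limma 3.58.1 in R 4.3.3, with the rat as a random block (consensus correlation 0.297; prior degrees of freedom 1.01) and Benjamini-Hochberg adjustment over all probe sets. The fit was also run on simulated data with the same spread in every array. That run cannot speak to single arrays that stand apart, such as the right limb of rat 49. Limbs of 1 rat are paired because they come from 1 animal; the correlation of their deviations was 0.257, 0.534, 0.286, 0.401 and -0.000891 in SNX rats 12, 18, 20, 37 and 49.

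Named were the 15 largest rises and 10 largest falls past the threshold, every called list member, up to 4 further members per list, and the 8 genes past the threshold without the block; further uncalled genes with values were chosen for their role after their values were seen. The comparison and the 36 lists (24 pathways, 12 cell types) were chosen with earlier results of these data known. Depth has no meaning for arrays; their number limits the precision. Alternatives covered the block, normalization, filter, prior, array weights and left-out rats.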

Additional observations from a re-analysis of the deposited data

Results flagged for a closer look

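Among 36 called genes checked, the right minus left difference of 1 SNX rat stood far from the other 4 in 2 genes. For Hk2, rat 49 differed by 4.06 and the other rats by 2.50 to 2.69. For N4bp2, rat 18 differed by -0.19 and the other rats by -0.72 to -0.84. Chance alone marks about 1 in 20 such groups.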

How the results depend on the processing

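The count of probe sets called between the limbs of SNX rats was 99 and moved by more than 1.5 times under most alternatives. It was 14 with no replicate block, 6 with the block as a fixed term, 1 and 0 with SNX arrays alone (random and fixed block), 15 after quantile normalization, 47 after median centring, 211 with brighter probe sets alone, 282 with array weights, 39 without sham rat 17 and SNX rat 49 together (chosen after seeing the data), and 2 to 147 with 1 rat left out. A trend and robust prior gave 98. The 70 called genes kept their call in 490 of 1330 recalculations and reversed in 0. The difference of a gene could change only with other normalization, array weights or a left-out SNX rat, so the rest could not reverse it. Of 64 uncalled genes with values, 23 gained a call in 48 of 1216 recalculations, mostly with array weights, with brighter probe sets alone or without SNX rat 20; Cd14, Ccl7 and Atf3 are among them. For uncalled genes with values, the sign turned in Tnnt1 and Myh7 when SNX rat 20 was left out (ranges with 1 rat left out -0.80 to 0.08 and -0.41 to 0.15), and in Myh4 when rat 37 or rat 49 was (-0.09 to 0.04), or sham rat 17 and rat 49 together (0.04). List medians moved by more than their spread in 16 of 719 recalculations.

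In sham rats 559 probe sets were called, against 46, 117, 238, 291, 859 and 1451 (no block, fixed term, quantile, centring, brighter, weights), and 72 to 1567 with 1 rat left out. The difference of responses had 0 called, 0 to 2 with 1 rat left out and 1 without both rats. SNX against sham in the left limb had 2 called, 77 with array weights, 0 to 12 with 1 rat left out and 0 without both rats. The cause of these shifts was not tested.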
